A study of Mus musculus with 12 samples.

Results

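The genes described here are 10 regulators of hair follicle growth and regression, Hoxc13, Foxn1, Msx2, Lef1, Shh, Wnt10b, Bmp4, Fgf5, Dlx3 and Gata3, chosen by symbol from the 23282 gene entries of the count tables. All 10 were found, each listed once. They were compared in skin of 12 male wild type C57BL/6J mice between the AD group (5 mice) and the HF + AD group (7 mice, labelled AD+OB), with 1 sequencing library per mouse. Both groups carried experimental atopic dermatitis (AD), set up by painting 0.5% 2,4-dinitrochlorobenzene (DNCB), a contact sensitizer, on the back 3 times a week for 6 weeks. By the series' design both were given distilled water. AD mice ate normal chow, whereas HF + AD mice ate a high-fat (HF) diet with 60 kcal% fat that began 4 weeks before DNCB. The mice were bought at 5 weeks of age and fasted before tissue was taken. A contact allergen painted on wild type skin is a model of dermatitis without an inherited barrier defect, and no animals without DNCB were analysed here, so the values below compare diets within inflamed skin. The groups are those of the labels. The count table headers of the HF + AD mice begin with 4, the number that the design gives to a further high-fat group treated with GHJGS, and whether these 7 mice received it could not be settled here. If they did, the diet and that treatment cannot be told apart in any value below.

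Hair follicles cycle through growth (anagen), regression (catagen) and rest (telogen). In anagen, Wnt ligands and β-catenin with its DNA-binding partner Lef1, together with Shh, drive proliferation in the matrix at the base of the follicle, BMP signals from Bmp4 and related ligands hold stem cells at rest and push matrix cells to differentiate, and Fgf5 ends the growth phase. The transcription factors Hoxc13, Foxn1, Msx2 and Dlx3 then switch on hair keratins in cells that leave the matrix, and Gata3 specifies the inner root sheath. Foxn1, Dlx3 and Gata3 are also made in the epidermis between follicles. In whole skin, fewer cells of a type and less RNA per cell cannot be told apart.

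The libraries held 9746937 to 11688979 counts in AD (median 11111566) and 10726845 to 13462434 in HF + AD (median 12398847). Between 13100 and 15063 genes had a read in AD and between 15522 and 16677 in HF + AD, without overlap. How many counts came from 1 original RNA molecule was estimated from how often moderately expressed genes read 0. The estimate ran from 12 to 32.2 in AD and from 3.86 to 7.29 in HF + AD, again without overlap. This depth of sampling therefore cannot be told apart from the diet. As a library-wide average, the estimate need not hold for a single gene, and zeros from differences between mice would also raise it. AD mouse 1 stood apart: it was the lowest of the 12 mice for 6 of the 10 genes (for Wnt10b tied with AD mouse 4) and the highest for 2, Shh and Fgf5. Its 8 markers of hyperproliferative epidermis summed to 24501 CPM (counts scaled to 1000000 per library), against 7196 to 9741 in the other AD mice and 7207 to 18484 in HF + AD. Fold changes of the 10 genes that AD mouse 1 moved by over 1.5 times are given with and without it.

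Of the 10 genes, Foxn1 alone passed the test across all genes, being 1.72-fold higher in HF + AD than in AD, and none was called lower or was lower at an unadjusted p under 0.05. DESeq2, limma-trend and limma voom with sample weights each called the same single gene. The test was edgeR's quasi-likelihood test on the counts, with Benjamini-Hochberg adjustment over the 14163 genes that passed the filter on low counts, and a gene was called at an adjusted p under 0.05. Among all tested genes 9.2% were called, 4.43% higher and 4.77% lower (627 and 676 genes, or 744 and 515 when counts were scaled by library totals alone). All 10 genes passed the filter, so 1 of 10 was close to the share of all genes. At an unadjusted p under 0.05, 2 of the 10 passed, Foxn1 and Msx2, against 25.1% of all genes. Values of the groups did not overlap for 0 of the 10, against 5.46% of all genes. The median log2 fold change was 0.25 over the 10 genes and 0.02 over all tested genes, with 6 above 0 and 4 below. Levels below are log2(CPM + 1), with CPM taken over the library's tested counts after TMM scaling. They were compared between groups and not between genes, except where Foxn1 minus another gene is given within a mouse at the end.

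**Figure D1:**
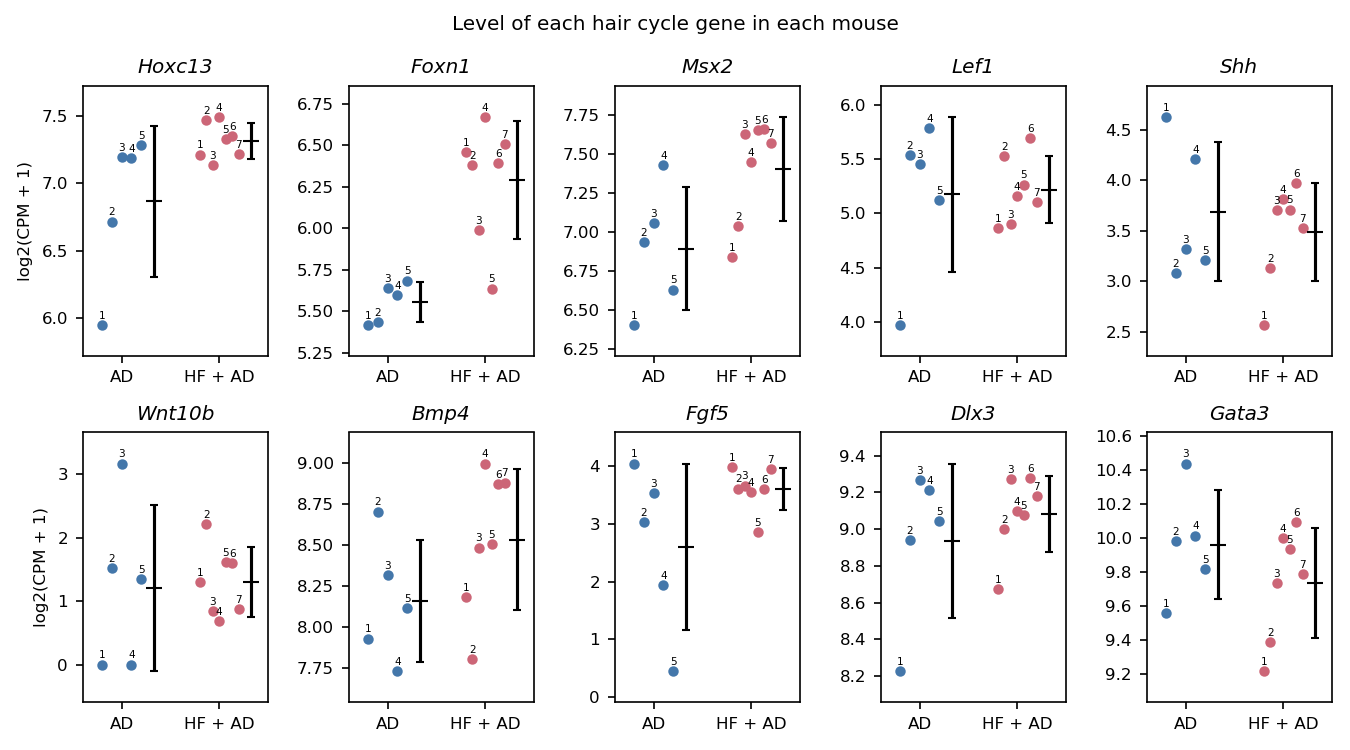
Level of each of the 10 genes in each mouse, as log2(CPM + 1) on the y axis (each panel has its own scale), with numbered points for mice in AD (blue) and HF + AD (red) and bars for mean ± SD (n = 5 and 7). For Foxn1, 6 of 7 HF + AD mice lay above every AD mouse, while for Lef1, Wnt10b and Fgf5 all 7 lay within the AD range.

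The transcription factors of the hair shaft came first. Foxn1, the forkhead factor whose loss gives nude mice, lies on chr11:78357577-78386558 (mm10, minus strand). Its raw counts were 460, 407, 484, 535 and 557 in AD mice 1 to 5 and ranged from 520 to 1197 (median 1062) in HF + AD. They correspond to an estimated 13.9 to 46.4 molecules a library in AD and 71.3 to 278 in HF + AD. HF + AD mouse 5, at 5.64 on the log2 scale, was inside the AD range, and the other 6 lay above every AD mouse. Mean Foxn1 levels were 5.55 ± 0.12 (SD, n = 5) in AD and 6.29 ± 0.36 (SD, n = 7) in HF + AD. The log2 fold change was 0.78 (SE 0.17, 95% confidence interval 0.42 to 1.15, edgeR adjusted p = 0.0132). An exact two-sided permutation test over all 792 splits of the mice gave p = 0.00505 for the difference in mean level, where 0.00126 is the smallest p this design allows. Without AD mouse 1 the log2 fold change was 0.75 (edgeR adjusted p = 0.0196), and with each of the 12 mice left out in turn the edgeR adjusted p stayed between 0.00499 and 0.0338. Foxn1 was also the only one of the 10 genes called after each library was divided by its counts per molecule (log2 fold change 0.78, edgeR adjusted p = 0.0127). Scaling to library totals undoes division by a constant, so the fold change could hardly move. That fit therefore cannot separate the depth of sampling from the diet.

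Foxn1 is also a gene of the interfollicular epidermis. The summed level of the 10 epidermal markers found was 3337 to 5996 CPM in AD and 5758 to 10063 CPM in HF + AD. Of 9 epidermal markers tested, the basal keratins Krt5 (log2 fold change 0.81, edgeR adjusted p = 0.00679) and Krt14 (1.05, edgeR adjusted p = 0.0248) were called higher and none lower. The median log2 fold change of the 9 was -0.10, with 4 above 0, and the differentiation markers Krt10 (-0.42), Krt2 (-1.01), Lor (-0.29) and Ivl (-0.24) were below 0 and not called. The Krt14 call was lost without AD mouse 2 (0.0625), AD mouse 3 (0.0588) or AD mouse 4 (0.0555), each an edgeR adjusted p. The part of these cells in the Foxn1 result was not tested.

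Hoxc13, the homeodomain factor that drives hair keratin genes in the precortex and cuticle (chr15:102921103-102928814, plus strand), was not called. Its counts were 670, 1005, 1441, 1633 and 1711 in AD and from 1706 to 2271 (median 1960) in HF + AD. AD mice 1 and 2 were the lowest, and 4 of 7 HF + AD mice exceeded every AD mouse. Hoxc13 levels were 6.87 ± 0.56 (SD, n = 5) and 7.31 ± 0.13 (SD, n = 7), so the spread in AD was the wider. The log2 fold change of 0.38 (SE 0.19, 95% confidence interval -0.01 to 0.77) had an edgeR adjusted p of 0.217, and the exact permutation p was 0.0215. Without AD mouse 1 the exact permutation p was 0.0758 and the log2 fold change was 0.21.

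Msx2, a homeodomain repressor and BMP target of the matrix that acts upstream of Foxn1 (chr13:53466884-53473074, minus strand), had counts of 922, 1171, 1307, 1932 and 1082 in AD and from 1469 to 2710 (median 2133) in HF + AD. HF + AD mice 3 to 7 lay above every AD mouse, and HF + AD mice 1 and 2 lay among them. Levels of Msx2 were 6.89 ± 0.39 (SD, n = 5) and 7.40 ± 0.33 (SD, n = 7). The log2 fold change of 0.50 (SE 0.19, 95% confidence interval 0.10 to 0.90) did not pass over all genes (edgeR adjusted p = 0.103), while the exact permutation p was 0.0290. Msx2 was called only without AD mouse 4 (log2 fold change 0.66, edgeR adjusted p = 0.0436), and without AD mouse 1 its exact permutation p was 0.0909.

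Promoter windows of Foxn1 and Msx2, the pair that passed at an unadjusted p under 0.05, are shown because Msx2 lies upstream of Foxn1 in the follicle and both windows hold letters that Msx and Dlx homeodomains bind. RefSeq windows (build GRCm38.p6, from 250 bases before to 50 after the annotated start) were found for 7 of the 10 genes, Foxn1, Msx2, Lef1, Wnt10b, Bmp4, Fgf5 and Gata3. Each sequence reads 5′ to 3′ on the gene's strand, with matches to TAATTG or TAATTA in capitals. The Foxn1 window is chr11:78386559-78386858 and the Msx2 window chr13:53472731-53473030, both on the minus strand.
Foxn1: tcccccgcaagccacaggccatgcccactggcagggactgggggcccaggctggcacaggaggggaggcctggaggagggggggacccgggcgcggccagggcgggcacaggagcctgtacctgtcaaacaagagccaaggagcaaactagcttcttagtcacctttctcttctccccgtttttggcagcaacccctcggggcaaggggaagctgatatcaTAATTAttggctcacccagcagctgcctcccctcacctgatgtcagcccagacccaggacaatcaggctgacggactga
Msx2: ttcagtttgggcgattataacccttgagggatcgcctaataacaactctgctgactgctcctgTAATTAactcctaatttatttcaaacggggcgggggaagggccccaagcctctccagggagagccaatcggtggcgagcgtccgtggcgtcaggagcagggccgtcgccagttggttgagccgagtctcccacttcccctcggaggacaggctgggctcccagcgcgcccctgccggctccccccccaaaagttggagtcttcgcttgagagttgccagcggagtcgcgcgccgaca
The first base of the match is at position -29 in Foxn1 and -187 in Msx2, counted from the RefSeq start of the window. The gene spans given with each gene are from GENCODE and begin elsewhere. Against those spans, the Foxn1 window lies wholly before the gene, and the Msx2 match lies inside the gene. With both strands searched, 12.4% of all 32851 RefSeq windows held TAATTG or TAATTA. No other window of the 10 genes held these letters. CTTTGA or CTTTGT, the letters of TCF/LEF factors, occurred in 31.2% of all windows and, among these genes, in the Fgf5 window and in 1 of 4 Lef1 windows. The latter also held AGATAA or TGATAA, the letters of Gata factors, found in 18.6% of all windows. Neither GACCACCCA (Gli, 0.253% of all windows) nor CCAATAAA or CTCGTAAA (Hoxc13, 1.25%) occurred in a window of the 10 genes. A match describes letters and not a bound site, and an effect of Msx2 on Foxn1 was not tested.

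Dlx3, a homeodomain factor of the hair shaft and of upper epidermal layers (chr11:95120119-95125296, plus strand), did not separate the groups. Its counts were 3290, 4730, 6091, 6701 and 5817 in AD and ranged from 5280 to 8505 (median 6587) in HF + AD. AD mouse 1 was the lowest, and 5 of 7 HF + AD mice were within the AD range. The Dlx3 levels were 8.94 ± 0.42 (SD, n = 5) and 9.08 ± 0.21 (SD, n = 7). A log2 fold change of 0.11 (95% confidence interval -0.23 to 0.46, edgeR adjusted p = 0.723) turned to -0.02 without AD mouse 1.

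Lef1, the partner of β-catenin in the precortex (chr3:131110471-131224356, plus strand), had counts of 162, 439, 425, 612 and 373 in AD and of 365 to 623 (median 400) in HF + AD. AD mouse 1 was again the lowest and all 7 HF + AD mice fell within the AD range. Mean Lef1 levels were 5.17 ± 0.71 (SD, n = 5) and 5.22 ± 0.31 (SD, n = 7). The log2 fold change was -0.05 (95% confidence interval -0.59 to 0.50, edgeR adjusted p = 0.939), with -0.25 without AD mouse 1.

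Gata3, which specifies the inner root sheath and is also expressed by epidermis and by T helper 2 and innate lymphoid cells (chr2:9857078-9890034, minus strand), had counts of 8294, 9761, 13740, 11695 and 9960 in AD and 7706 to 13370 (median 11746) in HF + AD. HF + AD mice 1 and 2 lay below every AD mouse and the other 5 within their range. Gata3 levels were 9.96 ± 0.32 (SD, n = 5) and 9.74 ± 0.32 (SD, n = 7). Its log2 fold change was -0.23 (95% confidence interval -0.58 to 0.13, edgeR adjusted p = 0.451), and ran from -0.31 without AD mouse 1 to -0.09 without AD mouse 3. The 14 T and innate lymphoid cell markers found summed to 164 to 378 CPM in AD and 197 to 293 CPM in HF + AD, and 0 of the 12 tested were called by edgeR in either direction (1 lower at an unadjusted p under 0.05).

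**Figure D2:**
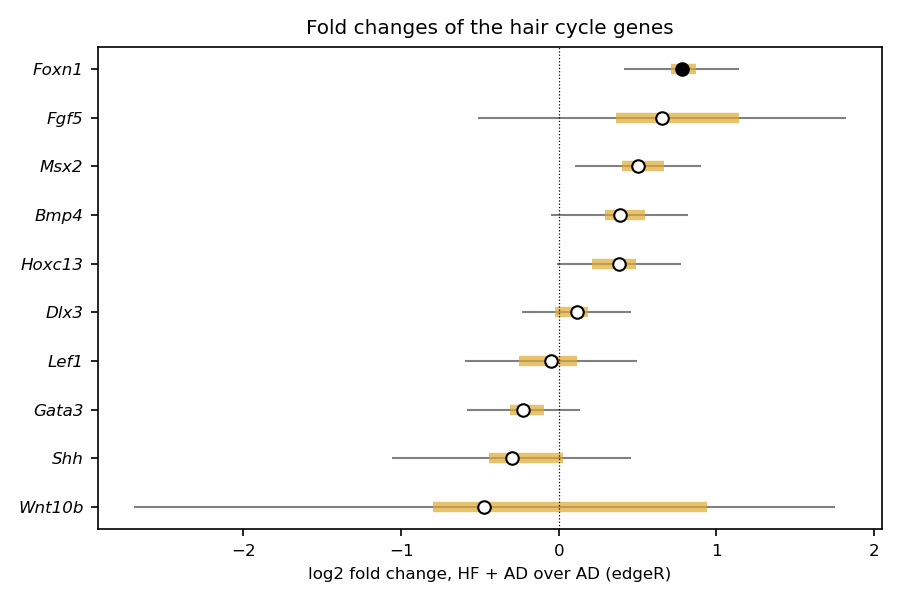
Log2 fold change of each gene, HF + AD over AD (x axis), with the 95% confidence interval (grey line), the range when each of the 12 mice was left out in turn (yellow bar) and a filled point for an edgeR adjusted p under 0.05. Foxn1 is the only filled point (0.78), and the yellow bars of Dlx3, Lef1, Shh and Wnt10b cross 0.

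The 4 secreted signals were not called, and 3 of them (Shh, Wnt10b and Fgf5) rested on few reads. Shh, the hedgehog ligand of the matrix (chr5:28456815-28467256, minus strand), had counts of 261, 72, 89, 198 and 91 in AD and from 64 to 180 (median 140) in HF + AD. AD mice 1 and 4 were the highest of all 12, and HF + AD mouse 1 was the lowest. Levels of Shh were 3.69 ± 0.69 (SD, n = 5) and 3.49 ± 0.48 (SD, n = 7), with a log2 fold change of -0.30 (95% confidence interval -1.06 to 0.46, edgeR adjusted p = 0.664) that became 0.03 without AD mouse 1. By the estimate above, the AD counts came from 2.46 to 16.2 molecules a library.

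Wnt10b, a Wnt ligand of the anagen placode and matrix (chr15:98770712-98778150, minus strand), had counts of 0, 18, 79, 0 and 17 in AD and from 7 to 47 (median 19) in HF + AD. It was not read in AD mice 1 and 4, where a count of 0 allows up to 0.257 and 0.270 CPM of the library total. This limit covers counting error only and takes each count as its own molecule. With an estimated 32.2 and 12.2 counts per molecule in these mice, the actual limit is higher. AD mouse 3 was the highest of the 12. The log2 fold change of -0.47 (95% confidence interval -2.70 to 1.75, edgeR adjusted p = 0.829) turned positive in 4 other analyses and without AD mouse 3 (0.94), and was -0.79 without AD mouse 1. A difference was not detectable at this depth, with 0 to 4.79 estimated molecules per AD library.

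Bmp4, the BMP ligand of the dermal papilla and matrix (chr14:46383520-46390669, minus strand), had counts of 2675, 4009, 3147, 2390 and 3051 in AD and from 2872 to 6244 (median 4918) in HF + AD. HF + AD mice 4, 6 and 7 lay above every AD mouse and the other 4 within their range. Levels of Bmp4 were 8.16 ± 0.37 (SD, n = 5) and 8.53 ± 0.43 (SD, n = 7), with a log2 fold change of 0.39 (SE 0.20, 95% confidence interval -0.05 to 0.82, edgeR adjusted p = 0.257). The last 1000 bases of Bmp4 overlap Gm15217 on the opposite strand. Gm15217 has its own row in the count tables, and since the strand setting of the counting is not given in the sources used here, reads of the pair cannot be told apart.

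Fgf5, the signal that ends anagen (chr5:98254184-98277030, plus strand), had counts of 171, 69, 105, 32 and 4 in AD and from 67 to 192 (median 145) in HF + AD. The AD mice spread over the whole range and held both the highest and the lowest level of the 12. Fgf5 levels were 2.60 ± 1.43 (SD, n = 5) and 3.60 ± 0.37 (SD, n = 7). The log2 fold change of 0.65 (SE 0.55, 95% confidence interval -0.51 to 1.82) had an edgeR adjusted p of 0.506. It was 1.15 without AD mouse 1 (edgeR adjusted p = 0.193) and 0.36 without AD mouse 5 (edgeR adjusted p = 0.629). The AD counts came from 0.333 to 6.37 estimated molecules a library. The lowest, from 4 counts in AD mouse 5, is below 1 molecule, which shows the limit of a library-wide average.

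**Figure D3:**
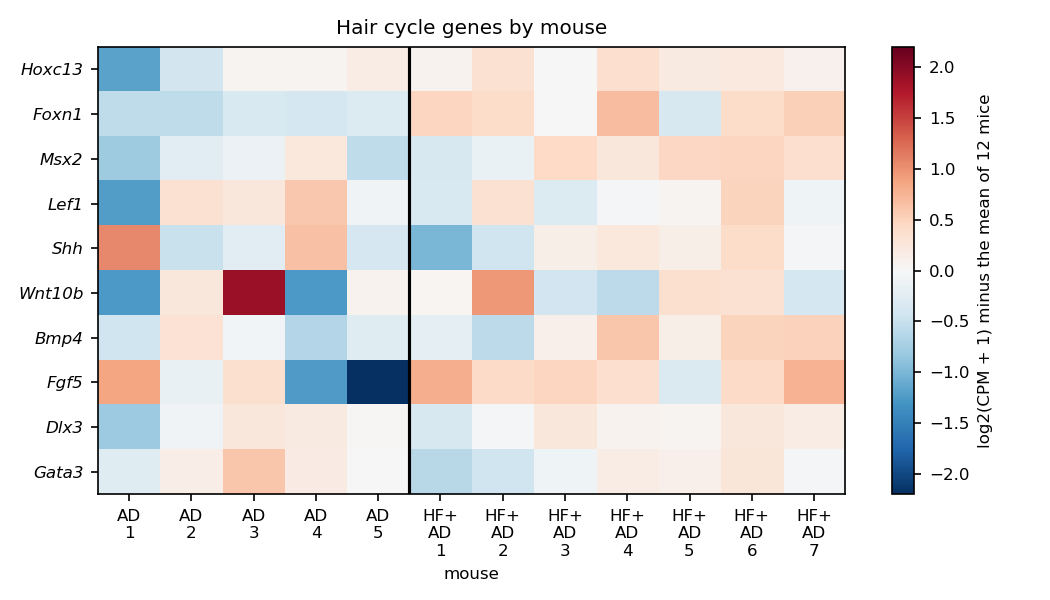
Level of each gene in each mouse as log2(CPM + 1) minus its mean over the 12 mice (colour, red above and blue below), with genes in rows and mice in columns, and a line between AD (left) and HF + AD (right). The AD mouse 1 column is blue for 8 of the 10 genes and red for Shh and Fgf5, and the Foxn1 row is blue in all 5 AD mice.

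The genes varied together within groups to different degrees. Pearson's r between levels centred by group is given as a description over 12 mice that share libraries, depth and sampling of follicles. Over the 45 pairs r ranged from -0.656 (Hoxc13 with Fgf5, -0.455 without AD mouse 1) to 0.803 (Msx2 with Dlx3), with a median of 0.127 and 31 above 0. Msx2, Dlx3 and Gata3 varied together, with 0.799 for Msx2 and Gata3 and 0.763 for Dlx3 and Gata3. These 3 values were 0.806, 0.745 and 0.771 without AD mouse 1. The r of Hoxc13 with Lef1, 0.783, and with Dlx3, 0.778, dropped to 0.191 and 0.229 without AD mouse 1, and that of Lef1 with Dlx3 from 0.792 to 0.358. For Shh it went the other way, from 0.370 to 0.902 with Msx2 and from -0.0816 to 0.810 with Dlx3. Foxn1, the called gene, had no r above 0.312 with another of the 10. Its r with Msx2 was -0.213, and -0.34 without AD mouse 1.

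**Figure D4:**
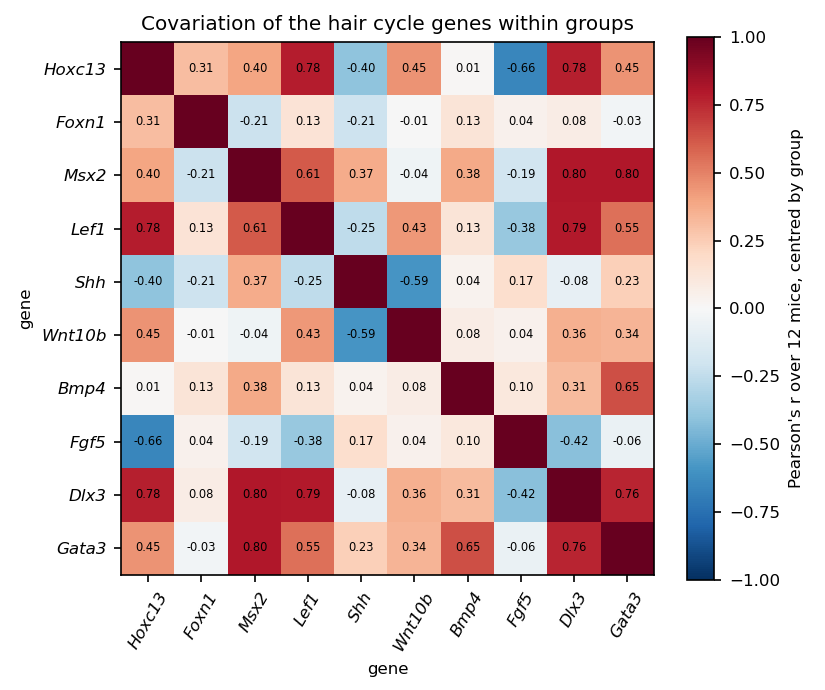
Pearson's r between each pair of the 10 genes over 12 mice, from log2(CPM + 1) centred within AD and within HF + AD (colour and printed value). The block of Msx2, Dlx3 and Gata3 lies between 0.76 and 0.80, and the Foxn1 row stays at or below 0.31.

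Among 13202 genes with a mean count of at least 20, those whose centred level was most like each regulator were found in the same way. Foxn1 was followed most closely by Gm13032 (r = 0.944), Kdm4a (0.940) and Pvrl4 (0.923), Hoxc13 by Auts2 (0.984), Msx2 by Topbp1 (0.947) and Dlx3 by Gna13 (0.938). For Lef1 it was Aplf (0.951), for Gata3 Pdk1 (0.929), for Shh Bri3bp (0.919), for Wnt10b Pbx2 (0.926), for Bmp4 Bbip1 (0.856) and for Fgf5 Ubl4a (0.961). Without AD mouse 1 the r of the 3 most like genes of each regulator lay between 0.763 (Lef1 with Prkcd) and 0.972 (Gata3 with Pdk1), and was 0.935 for Hoxc13 with Auts2. These genes were picked for the highest r over the same mice, so high values are partly set by that choice.

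The other genes of the same pathways were then counted. Of 212 listed genes 172 were tested, and 13 were called higher and 6 lower, which is 11.0% against the 9.2% of all tested genes, with a median log2 fold change of -0.01. No call fell among Wnt ligands, Wnt receptors, Wnt inhibitors, BMP ligands, FGF ligands or Eda and Notch genes. At an unadjusted p under 0.05, edgeR gave 9 of these lists' 72 tested genes lower and 3 higher. Of all tested genes, 25.1% passed that threshold in either direction. DESeq2 called 1 gene in each of 4 of the lists (Rspo1, Sfrp2 and Fgf1 lower and Fzd2 higher), limma-trend called Wnt7b and Fzd2 higher and Sfrp2 lower, and limma voom with sample weights called Sfrp2 lower, names that were taken after the values were seen.

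In the Wnt pathway, edgeR called 2 mediators or targets higher and 1 lower of 15 tested. DESeq2 and limma-trend called the same genes. By contrast, limma voom with sample weights called only Tcf7l1 higher and Gsk3b lower. Bcl9l, a coactivator of β-catenin, rose (log2 fold change 1.62, edgeR adjusted p = 0.0224), as did the inhibitor Nkd2 (0.53, edgeR adjusted p = 0.0381), and Gsk3b, the kinase that marks β-catenin for destruction, fell by 0.50 on the log2 scale (edgeR adjusted p = 0.0487). Leaving out AD mouse 2, AD mouse 3 or mouse 1 of HF + AD ended the Bcl9l call (edgeR adjusted p = 0.0551, 0.0526 and 0.0508). Nkd2 kept its call only when mouse 1 or 5 of AD or mouse 3 or 5 of HF + AD was the one left out, and was at an edgeR adjusted p of 0.0534 to 0.0891 without any other mouse. Gsk3b kept it only with mouse 1 of AD or mouse 5 of HF + AD left out, with an edgeR adjusted p of 0.0511 to 0.129 otherwise. Ctnnb1, β-catenin itself, had a log2 fold change of -0.08 (95% confidence interval -0.30 to 0.14), and Axin2, a feedback target of the pathway, had -0.16 (-0.63 to 0.31). Wnt10a, the close relative of Wnt10b, had -0.04 (-0.39 to 0.31). The TCF factors Tcf7l1 and Tcf7l2 had 0.90 and -0.25 and were not called by edgeR (edgeR adjusted p = 0.134 and 0.214). Tcf7 was too low to be tested.

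Among 13 tested hedgehog genes, Hhip, a decoy that binds the ligand and is itself a target, fell by 1.60 on the log2 scale (edgeR adjusted p = 0.0132). Hhip counts were 570 to 1568 in AD and 100 to 678 in HF + AD, 6 of 7 HF + AD mice lay below every AD mouse, and the call held with each mouse left out in turn. Gas1, a coreceptor, rose (log2 fold change 0.79, edgeR adjusted p = 0.0286), and so did Sufu, an inhibitor of Gli factors (1.44, edgeR adjusted p = 0.0304). DESeq2 and limma-trend called all of these, whereas limma voom with sample weights called Hhip alone. Gas1 was no longer called once mouse 2, 3, 4 or 5 of AD, or mouse 1 or 2 of HF + AD, was left out (edgeR adjusted p = 0.0513 to 0.0650). The same held for Sufu with mouse 4 of AD or mouse 1, 2, 4, 6 or 7 of HF + AD (edgeR adjusted p = 0.0502 to 0.0712). Gli1, the transcription factor that reads out the pathway, had a log2 fold change of 0.20 (95% confidence interval -0.29 to 0.68) and the signal transducer Smo -0.34 (-0.62 to -0.07, edgeR adjusted p = 0.106). The receptor Ptch1 had 0 to 23 counts in every library and a 95% confidence interval of -3.22 to 1.84.

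Along the BMP pathway, edgeR called 4 genes, all higher. They were 0 of 6 ligands, 1 of 14 receptors, mediators and targets, and 3 of 12 inhibitors tested, beside 9.2% of all tested genes. At an unadjusted edgeR p under 0.05, these lists held 0, 2 and 3 genes higher and 3, 3 and 2 lower. DESeq2 called the same 4 and, as lower, Bmpr1a, Smad4 and Twsg1, which edgeR, limma-trend and limma voom did not call. Bambi, a pseudoreceptor that blocks BMP signals, had 450 to 1056 counts in AD and 1063 to 2387 in HF + AD, its levels did not overlap, and its log2 fold change was 1.08 (SE 0.21, edgeR adjusted p = 0.00736). The BMP antagonists Fstl1 (1.24, edgeR adjusted p = 0.0214) and Fstl3 (1.00, edgeR adjusted p = 0.0342) and the Id family member Id4 (0.85, edgeR adjusted p = 0.0219) were the others. Fstl3 lost its call when mouse 2, 3 or 4 of AD or mouse 1, 2, 4, 6 or 7 of HF + AD was dropped (edgeR adjusted p = 0.0547 to 0.0753), while those of Bambi, Fstl1 and Id4 held with each mouse left out. The BMP target genes Id1, Id2 and Id3 had log2 fold changes of 0.43, 0.13 and -0.08 and were not called. Nor were Bmp2 (0.14), the receptor Bmpr1a (-0.43, edgeR adjusted p = 0.0723) and the antagonists Nog (0.51, with 0 to 34 counts) and Sostdc1 (-0.66, edgeR adjusted p = 0.113).

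The only FGF gene called was Spry2, a feedback inhibitor of FGF receptor signals, which fell by 0.78 on the log2 scale (edgeR adjusted p = 0.0256) and was not called once mouse 2 of AD or mouse 1, 2 or 4 of HF + AD was dropped (edgeR adjusted p = 0.0518 to 0.0723). Fgfr1, the receptor through which Fgf5 acts, had a log2 fold change of 0.25 (95% confidence interval -0.03 to 0.53). Fgf7, a growth factor of the papilla, had -0.38 (-1.56 to 0.80), Fgf18 was too low to be tested, and Fgf22 was at 0 in all 12 libraries.

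Other follicle transcription factors, of which 34 were tested, gave 5 calls higher and 3 lower. Hr, whose loss removes hair after the first cycle, was higher by a log2 fold change of 1.33 (edgeR adjusted p = 0.0152). Foxq1, which is needed for a normal medulla and acts downstream of Hoxc13, had the lowest adjusted p of these factors, with 594 to 911 counts in AD, 1400 to 2556 in HF + AD and a log2 fold change of 1.30 (SE 0.16, edgeR adjusted p = 0.00125). Sox9, the stem cell and outer root sheath factor, rose by 1.18 on the log2 scale (edgeR adjusted p = 0.00662) and Barx2 by 0.96 (edgeR adjusted p = 0.00960), and Runx3 fell by 0.84 on the log2 scale (edgeR adjusted p = 0.0137). None of these 5 had overlapping groups or lost its call with a mouse left out. The other calls were Ovol1 (0.62), lost without AD mouse 2 (edgeR adjusted p = 0.0607), Rxra (-0.52), which held, and Trps1 (-0.64), lost with 7 of the 12 mice left out singly and kept only without mouse 1, 4 or 5 of AD or mouse 5 or 6 of HF + AD, at an edgeR adjusted p of up to 0.105. The relatives Msx1, Dlx1 and Dlx2 were not called, with log2 fold changes of -0.05, 0.30 and -0.40.

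**Figure D5:**
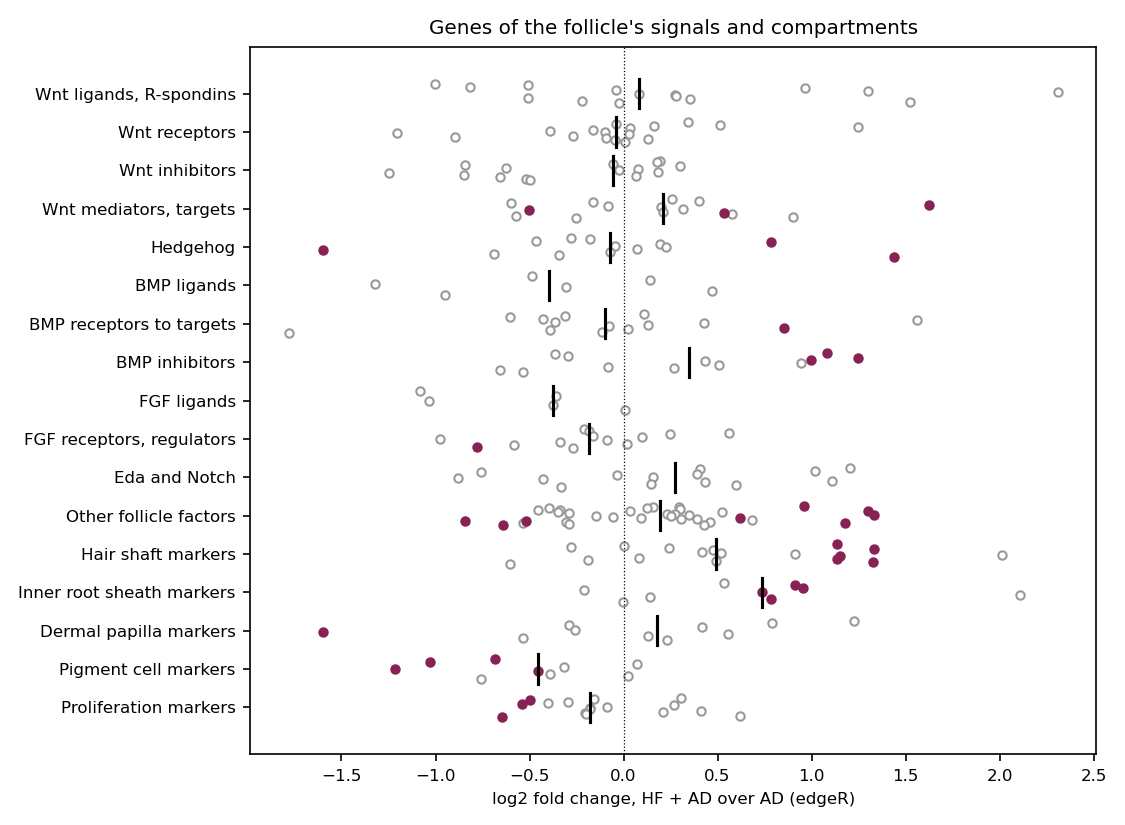
Log2 fold change, HF + AD over AD (x axis), of each tested gene of the pathway and marker lists (rows) without the 10 regulators, with filled points for an edgeR adjusted p under 0.05 and a black bar at each list's median. Of the lists drawn, inner root sheath markers have the highest median (0.74) and pigment cell markers the lowest (-0.46).

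Genes that Hoxc13, Foxn1, Msx2 and Dlx3 are known to act on, the keratins of the shaft, were read beside them. Of 17 hair shaft markers tested, 5 were called higher (Krt31, Krt34, Krt84, Krt86 and S100a3) and none lower, with a median log2 fold change of 0.49. Their sum was 3626 to 6965 CPM in AD and 5300 to 8851 CPM in HF + AD, so the groups overlapped through AD mouse 5, the highest AD mouse. Of the called genes Krt34 had the largest change (log2 fold change 1.33, edgeR adjusted p = 0.00283), and its groups did not overlap. Krt84 kept its call only with mouse 5 of AD or mouse 3 of HF + AD left out, and Krt86 only with mouse 5 of AD or mouse 4 of HF + AD left out (edgeR adjusted p otherwise 0.0514 to 0.0927 and 0.0513 to 0.106). The shaft keratins Krt35 (0.48, edgeR adjusted p = 0.149) and Krt85 (0.08, edgeR adjusted p = 0.870) were not called. Of 9 inner root sheath markers tested, 4 were called higher (Krt26, Krt27, Krt71 and Padi3) and none lower, with Krt71 at a log2 fold change of 0.74 (edgeR adjusted p = 0.0120) and Krt25 at 0.53 (edgeR adjusted p = 0.117). Single shaft keratins are close copies of one another, so counts could be shared among them.

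The markers of other compartments were counted in the same way. Of 9 pigment cell markers 4 were called lower (Dct, Pmel, Oca2 and Gpnmb) and none higher, with a summed level of 2582 to 5401 CPM in AD and 1184 to 2882 CPM in HF + AD. Of 16 proliferation markers 3 were called lower (Top2a, Ccnb1 and Birc5) and none higher, while 2 were higher at an unadjusted p under 0.05. Of these 7 calls, that of Dct held with each mouse left out, and each of the other 6 was lost with 5 to 10 mice left out singly, AD mouse 2 and HF + AD mouse 2 among them, at an edgeR adjusted p of up to 0.145. In the dermal papilla list 1 of 10, Hhip, was called lower, with a list median of 0.18 and 6 of 10 above 0, and in the companion and outer root sheath list 1 of 8, Krt15, was called higher. Of 12 skeletal muscle markers, which lie outside the follicle, 3 were called lower (Acta1, Atp2a1 and Myl1) and none higher, with a median of -0.72. The Myl1 call held with each mouse left out, and those of Acta1 and Atp2a1 were lost with 9 and 8 mice left out singly, among them AD mice 1, 2 and 5 (edgeR adjusted p of up to 0.113 and 0.0857). The part of any of these cell populations in the results for the 10 regulators was not tested.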

How the data were processed

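Skin RNA of 12 mice, 1 library per mouse, was extracted with TRIzol and sequenced as QuantSeq 3′ libraries, in which each transcript gives reads near its end, so counts do not scale with gene length. For each sample the authors deposited 1 table of raw counts over genes, made with Bowtie2 and bedtools on mm10 per the labels and the submitters' processing notes (versions and strand setting not given in the sources used here). No molecular identifiers are described, so counts include copies made by PCR. Groups follow the labels. The headers of the AD and HF + AD tables begin with 2 and 4, whereas the series' design numbers HF + AD as 3 and a further treated group as 4, and no label names that treatment. Whether the HF + AD tables could be those of the treated group could not be settled from the sources used here.

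Genes passing edgeR's filter (14163 of 23282 entries, of which 4677 had no read and 35 symbols were listed more than once) were tested with edgeR 4.0.16 in R 4.3.3, with TMM scaling (factors 0.944 to 1.04) and the quasi-likelihood test. Single genes were also compared by an exact permutation test on log2(CPM + 1). Alternatives were DESeq2 1.42.0, limma 3.58.1 (trend with a prior count of 2, and voom), the two-group test of the study, other scalings and filters, division of each library by its estimate of reads per original molecule (from genes with 10 to 200 counts expected), a replicate block and each mouse left out in turn. Gene coordinates came from GENCODE M21 (GRCm38, the mm10 assembly). The code was tested on simulated data.

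The 10 genes and the gene lists were chosen with earlier results of these data known. From each pathway list up to 5 called genes with the largest change were named, and fixed partners (such as Gli1, Axin2 and Id1) in any case. For each of the 10 genes, the 3 genes of highest centred r were found among those with a mean count of at least 20.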

Additional observations from a re-analysis of the deposited data

Results flagged for a closer look

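Fgf5 in HF + AD mouse 5 stood apart from the other mice of its group. Its level was 2.863 on the log2(CPM + 1) scale, while the other 6 lay between 3.55 and 3.98, and the gap to the nearest mouse was 0.613 of the group's range, above the critical value of 0.568 for 7 mice. The 67 counts behind it correspond to 9.19 estimated molecules, the fewest in the group. It was 1 of 20 groups examined (10 genes in each of the groups AD and HF + AD), and chance alone flags about 1 in 20.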

How the results depend on the processing

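Across the alternatives, Foxn1 kept its direction in all 22 and its call in 21, at adjusted p-values of 0.00110 to 0.110. Among all genes, edgeR called 627 higher and 676 lower. The DESeq2 Wald test called 988 higher, and limma voom with sample weights called 329 higher and 437 lower. With the two-group t test, also at an adjusted p under 0.05, 433 were lower. Leaving out a mouse gave 308 to 775 higher and 331 to 766 lower, both lowest without HF + AD mouse 2. Called regulators numbered 1 to 2 (2 without AD mouse 4) with a mouse left out. Called pathway genes, 13 higher and 6 lower, became 7 and 3 with the two-group test, 12 lower with DESeq2, and 8 to 15 higher and 3 to 10 lower with a mouse left out. The two-group test also ended the Hhip call.

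Directions changed for uncalled genes, and the cause was not tested. Lef1 turned to 0.048 with limma-trend and 0.043 with the two-group test, and its mean rank differed by -1.2 in the rank-sum test. Wnt10b turned to 0.70, 1.90 and 0.10 with limma-trend, voom and the two-group test. Log2 fold changes with a mouse left out were -0.25 to 0.12 for Lef1, -0.44 to 0.026 for Shh, -0.80 to 0.94 for Wnt10b and -0.023 to 0.19 for Dlx3, and differences in mean log2(CPM + 1) were -0.26 to 0.20, -0.35 to 0.035, -0.20 to 0.59 and -0.034 to 0.23.

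Same-numbered mice of the groups did not deviate together (correlations of -0.106 to 0.0724 over 5 pairs, with only AD mouse 4 best matched by its own number). No pairing by number was seen, but such a check cannot tell whether mice shared a cage or batch. With the replicate block, 100 genes were higher and 92 lower, 0 of the 10 regulators and 5 and 1 of the pathway genes were called, Foxn1 had a log2 fold change of 0.69 (adjusted p = 0.110), and Wnt10b turned to 1.39.

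Few molecules per library limit Wnt10b, Fgf5 and Shh most. In AD, Lef1 (5.03 to 50.2 estimated molecules a library) and the called gene Foxn1 (13.9 to 46.4) were also thinly sampled.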

Other observations

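The 3 genes most like Foxn1 within groups differed in their test results. Pvrl4, a nectin of cell junctions, had a log2 fold change of 1.40 (edgeR adjusted p = 0.00125), Gm13032 had 4.83 (edgeR adjusted p = 0.00811), and Kdm4a, a histone demethylase, had 0.62 (edgeR adjusted p = 0.0584). Within a mouse, the Foxn1 level minus that of another of the 10 genes put 6 of 7 HF + AD mice above every AD mouse for Gata3 (-4.80 to -4.13 in AD and -4.30 to -2.76 in HF + AD). It did so in 4 of 7 for Dlx3 and for Shh, 3 for Msx2, 2 for Lef1, Wnt10b and Bmp4, and 0 for Hoxc13 and Fgf5. The Foxn1 level alone also put 6 of 7 HF + AD mice above every AD mouse.

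For Fgf5 the exact permutation p was 0.0783, and in 3 of the 15 alternatives of that exact permutation test it was under 0.05 (lowest 0.0212), while the unadjusted edgeR p was 0.254. Krt15, a marker of follicle stem cells, was higher without overlap between groups (log2 fold change 1.21, edgeR adjusted p = 0.0151), with 1323 to 2202 counts in AD and 2350 to 11099 in HF + AD.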
